A study of Mus musculus with 18 samples.

Results

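Ribosome footprints of embryoid bodies lacking Sam68 were compared with those of wild-type embryoid bodies after 10 days of differentiation. The comparison holds 6 of the 18 libraries of the series, 3 titled Sam68 KO and 3 titled wild type (WT) at that time, chosen by their titles and not by any measured value. Both groups come from E14, a mouse embryonic stem cell line, grown as embryoid bodies, aggregates in which stem cells form early embryonic cell types. The knockout line has the same genetic background as WT and is labelled as lacking Sam68 only. How the line was made and from how many clones it was grown is not given in the sources used here. Cells of all groups were exposed to cycloheximide, which stalls ribosomes on mRNA, before nuclease digestion left only the protected fragments. The series calls its 3 libraries per group biological triplicates. The other 12 libraries hold both lines at day 0, before differentiation, and a Quaking knockout at both times.

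Sam68 is an RNA-binding protein of the STAR family, whose members recognise short motifs in RNA through a KH-type domain. It is known for regulating alternative splicing and other steps of RNA processing, and Quaking belongs to the same family. Footprint counting records the mRNA fragments covered by ribosomes, so a gene's count follows mRNA abundance as well as translation. No matched measurement of mRNA was used here, so a difference cannot be assigned to either. In whole embryoid bodies, fewer cells of a type and less RNA per cell also cannot be told apart. The files list genes by Ensembl ID without names, so the gene encoding Sam68 was not examined, the cell types were not checked against markers and the genotypes rest on the labels. IDs are given for at most 2 genes per direction and comparison, and other genes are described by their levels.

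Of the 6 libraries, 3 were dominated by a small number of features. The 10 largest features took 29.9% of the counts in Sam68 KO replicate 1, 60.2% in replicate 2 and 64.4% in replicate 3. In WT they took 29.9% in replicate 1, 30.2% in replicate 2 and 70.4% in replicate 3. Feature ENSMUSG00000064339.1 held 1.31%, 7.83% and 20.9% of the Sam68 KO libraries and 0.172%, 0.504% and 17.9% of the WT libraries. Feature ENSMUSG00000108010.1 was highest in Sam68 KO replicate 2, where it held 21.0%, against 3.42% to 9.71% in the other 5 libraries. Both features thus varied widely between libraries of 1 group. None of the 13 features with over 1% of a library passed the test between Sam68 KO and WT (lowest edgeR adjusted p among them 0.616). Totals were 2196924 to 7885195 counts per library in Sam68 KO and 1175919 to 6513343 in WT. After scaling, a floor of 3 counts stood at 0.377 to 2.78 CPM (counts relative to TMM-scaled library size) in Sam68 KO and at 0.450, 0.665 and 7.05 CPM in WT replicates 1, 2 and 3. In WT replicate 3, 6097 of the 13701 genes tested had at least 10 counts, against 9292 to 12623 in the other 5 libraries.

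**Figure D1:**
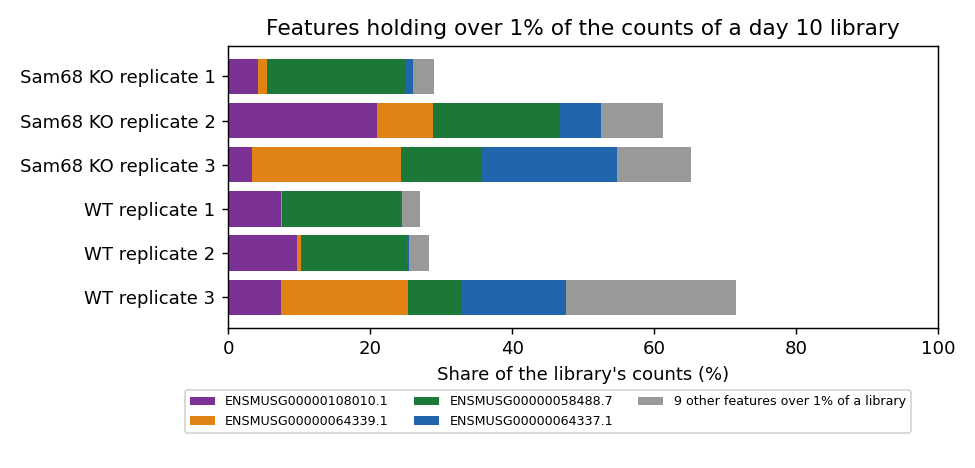
Share of each library's counts (horizontal axis, percent) held by the 13 features with over 1% of any of the 6 day 10 libraries, 4 of them coloured by feature and the other 9 in grey. In Sam68 KO replicates 2 and 3 and WT replicate 3 these features hold more of the library than in the other 3.

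The overall profiles of some libraries were closer to the other genotype than to their own. Across the 13701 genes, which are not independent replicates, log2 CPM of Sam68 KO replicate 1 correlated with WT replicate 1 at r = 0.976, against 0.948 and 0.934 with Sam68 KO replicates 2 and 3. WT replicates 1 and 2 correlated at r = 0.971. WT replicate 3 stood apart from its own group, with r = 0.847 and 0.843, and correlated at 0.878 with both Sam68 KO replicates 2 and 3. In these terms 5.49% of genes were over 2-fold apart between Sam68 KO replicate 1 and WT replicate 1, and 29.4% between WT replicates 1 and 3. The WT libraries carry the tag MIX_2 in their descriptions and the Sam68 KO libraries MIX_3, read here as library pools, so pool and genotype cannot be told apart in this comparison.

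After 10 days of differentiation, few genes were called different between Sam68 KO and WT embryoid bodies. Of 13701 genes tested, 24 (0.175%) passed edgeR's quasi-likelihood test at a Benjamini-Hochberg adjusted p below 0.05. Sam68 KO was higher for 10 of them (0.0730%) and lower for 14 (0.102%). The 10 higher genes exceeded WT by 1.53-fold to 3.47-fold, 9 of them by at least 2-fold. The 14 lower genes were 1.85-fold to 26.1-fold below WT, 12 of them by at least 2-fold. Without adjustment, 925 genes (6.75% of those tested) had a p below 0.05, 472 of them higher and 453 lower. Over all genes the median log2 fold change was -0.0058, and 95% of genes lay between -1.21 and 1.31.

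Precision depended on level. The 95% interval of the fold change lay within 2-fold in either direction for 8187 genes (59.8%), including 6325 of the 7533 genes at 10 to 100 CPM and 1246 of the 1434 above 100 CPM. Of the 4734 genes under 10 CPM, 616 had an interval that narrow, and their median SE was 0.59 on the log2 scale, against 0.15 above 100 CPM. A 2-fold difference was thus outside the interval for most genes above 10 CPM and inside it for most below. These intervals take their spread from all 18 libraries (common biological coefficient of variation 0.229). In the 6 libraries compared it was larger (0.301), so the intervals may be too narrow for this comparison. Of the 24 called genes, 6 lay under 10 CPM, 10 at 10 to 100 CPM and 8 above 100 CPM.

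**Figure D2:**
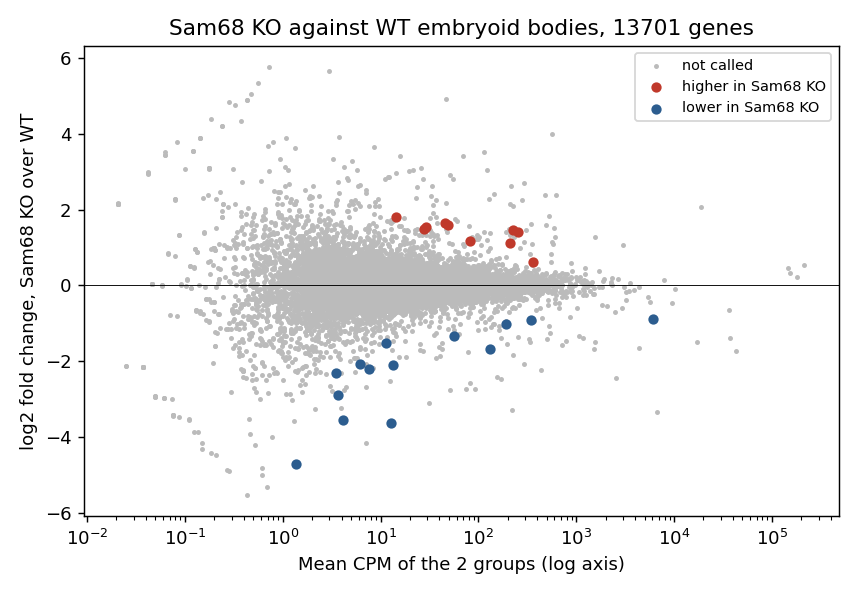
Log2 fold change of Sam68 KO over WT at day 10 (vertical axis) against the mean CPM of both groups (horizontal log axis), 1 point per gene for 13701 genes. The 10 genes called higher lie at 1.53-fold to 3.47-fold, amid uncalled genes with larger fold changes at low levels.

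Among the genes higher in Sam68 KO, ENSMUSG00000020542.18 had the largest fold change. It measured 28.1, 26.8 and 14.8 CPM in Sam68 KO replicates 1, 2 and 3 and 6.00, 9.08 and 2.35 CPM in WT replicates 1, 2 and 3. All Sam68 KO libraries were above all WT libraries, although the WT replicate 3 value rests on 1 count. Group means were 23.2 ± 7.30 and 5.81 ± 3.37 CPM (SD, n = 3), a 3.47-fold difference (log2 fold change 1.79, SE 0.36, edgeR adjusted p = 0.0429). Gene ENSMUSG00000021798.13 followed, with 76.4, 85.1 and 51.9 CPM in Sam68 KO and 25.6, 25.3 and 9.40 CPM in WT. Its groups did not overlap either, and the difference was 3.11-fold (log2 fold change 1.64, SE 0.26, edgeR adjusted p = 0.00281). ENSMUSG00000020542.18 was called in 9 of 18 alternative settings and in 2 of the 6 fits that left out 1 library. Its edgeR adjusted p was 0.220 without Sam68 KO replicate 1, 0.286 without replicate 2, 0.294 without WT replicate 1 and 0.0783 without WT replicate 2. It was 0.116 without the 3 dominated libraries, 0.173 on thinning, 0.0586 in the 9 day 10 libraries and 0.0852 in the 6 compared. ENSMUSG00000021798.13 was called in 16 of the 18 and lost without Sam68 KO replicate 2 (edgeR adjusted p = 0.0547) and in the fit of the 6 libraries alone (0.0548).

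Several of the higher genes were at least as well measured as those with the largest fold change. The smallest adjusted p of the comparison, 0.000104 by edgeR, belonged to the gene sixth from the top in fold change. It measured 352, 395 and 260 CPM in Sam68 KO and 120, 123 and 122 CPM in WT, so the WT libraries were nearly equal and the lowest Sam68 KO library exceeded them all. The next in order measured 391, 390 and 316 CPM in Sam68 KO and 121, 142 and 153 CPM in WT. The gene with the third largest fold change measured 73.3, 76.9 and 66.7 CPM in Sam68 KO and 24.3, 20.8 and 32.9 CPM in WT. In each of these 3 genes, picked from those called on these same libraries, the dominated libraries sat with their own group. The smallest change among the 10 was 1.53-fold, in a gene at 440 ± 57.3 CPM in Sam68 KO and 287 ± 11.5 CPM in WT (SD, n = 3). In all 10 genes every Sam68 KO library was above every WT library, which follows in part from their being called on these libraries. Over all 13701 genes the groups did not overlap in 1563 (11.4%), in either direction.

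Among the genes lower in Sam68 KO with at least 10 CPM in WT, ENSMUSG00000097160.2 had the largest fold change. It measured 1.13, 1.91 and 4.63 CPM in Sam68 KO, from 9, 4 and 5 counts, and 18.1, 24.8 and 25.8 CPM in WT. The groups were far apart, with means of 2.56 ± 1.84 and 22.9 ± 4.18 CPM (SD, n = 3), a 12.3-fold difference (log2 fold change -3.62, SE 0.50, edgeR adjusted p = 0.00143). Gene ENSMUSG00000036896.5 measured 2.64, 3.34 and 3.70 CPM in Sam68 KO and 14.1, 14.8 and 7.05 CPM in WT. Its lowest WT value, in replicate 3, comes from 3 counts, and it still exceeded each Sam68 KO library. The difference was 4.59-fold (log2 fold change -2.20, SE 0.30, edgeR adjusted p = 0.00143). That gene did not pass in a fit of the 6 libraries alone (edgeR adjusted p = 0.0654) or with all libraries thinned to 1 total (0.452, log2 fold change -1.46).

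The lower genes spanned a wide range of levels. The most abundant of the 24 called genes was lower in Sam68 KO, at 3582, 4396 and 4975 CPM against 8165, 7184 and 8627 CPM in WT, a 1.85-fold difference. Another measured 60.0, 53.5 and 78.7 CPM in Sam68 KO and 207, 218 and 176 CPM in WT. Another again measured 3.65, 8.12 and 5.56 CPM in Sam68 KO and 24.0, 22.4 and 16.4 CPM in WT. At the other end, the 26.1-fold change belonged to a gene at 2.70 ± 1.80 CPM in WT (SD, n = 3) with 1 count over the Sam68 KO libraries, so its fold change is loosely bounded. Groups did not overlap in 13 of the 14 lower genes, against 1563 of all 13701 genes (11.4%) in either direction. Such separation follows in part from their being called on these libraries. In several of the 13 the WT replicate 3 value rests on few counts, with 1 count in the gene of the 26.1-fold change. In the remaining lower gene WT replicate 3 had no count. Its floor of 7.05 CPM does not place that library above or below the Sam68 KO libraries at 0.755 to 1.85 CPM.

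**Figure D3:**
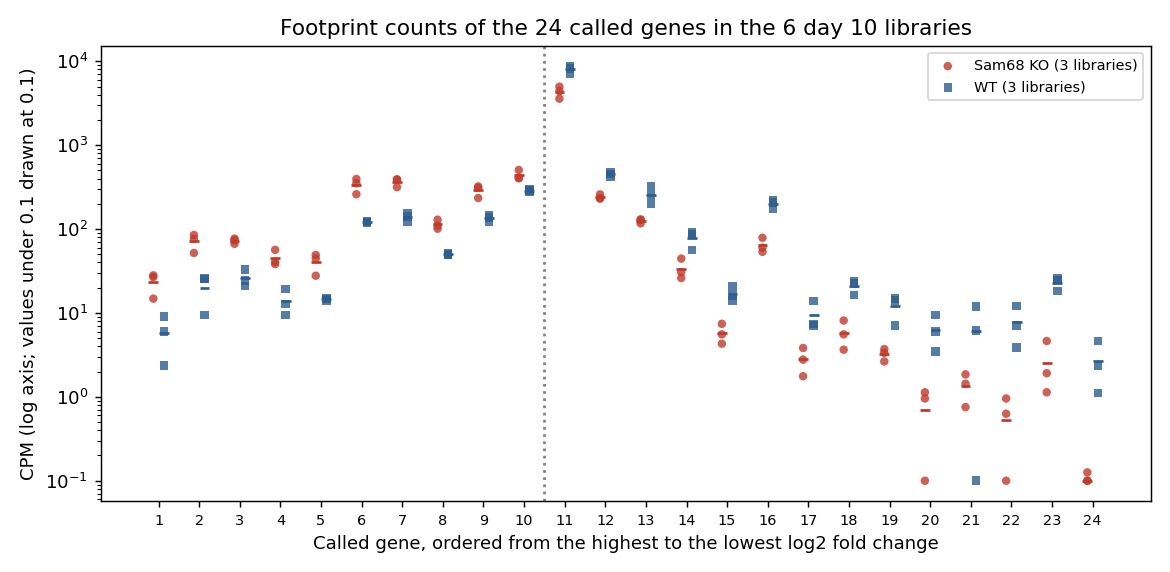
CPM (vertical log axis, values under 0.1 drawn at 0.1) of the 24 called genes, ordered along the horizontal axis from the highest to the lowest log2 fold change, with 3 Sam68 KO libraries as circles, 3 WT libraries as squares and horizontal bars at the group means. Circles and squares separate in 23 genes, and levels range from 8627 CPM to no count.

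How many genes were called depended on single libraries. Leaving out Sam68 KO replicate 2 left 10 calls, leaving out WT replicate 1 left 14 and leaving out WT replicate 2 left 12. Leaving out WT replicate 3, the library with the fewest usable counts, raised the number to 53, which included 23 of the 24. In all 6 such fits 7 of the 24 genes were called, among them ENSMUSG00000097160.2 and ENSMUSG00000036896.5. Without the 3 dominated libraries, which leaves 1 Sam68 KO library that is assumed to vary like the other groups, 25 genes were called and 13 were among the 24. Fitted on the 6 libraries alone, 11 genes passed and 6 were among the 24. The common biological coefficient of variation was 0.301 in those 6 libraries and 0.157 in the 6 Sam68 KO and WT libraries of day 0, against 0.229 in the fit of all 18. The sign of the fold change was kept for every one of the 24 genes measured in each of these fits. An additive term for pool estimates another contrast: Sam68 KO against Quaking KO at day 10, plus Quaking KO against WT at day 0. Its estimate holds no WT day 10 library and takes the Quaking effect as equal on both days. It is thus a different comparison and not a refit of the day 10 one. In it 17 of the 24 had the same sign and 7 the opposite one. Of the 7, 1 passed the threshold in the opposite direction, its log2 fold change going from -0.91 to 1.62 (edgeR adjusted p = 0.000341). This gene, at 241 ± 15.5 CPM in Sam68 KO and 453 ± 27.4 CPM in WT at day 10 (SD, n = 3), was singled out after its values were seen. Its Quaking effect was not equal on both days. Quaking KO stood below WT at day 10 by a log2 fold change of -2.79 (SE 0.20). The day 0 means lay close together, at 42.0 (Quaking KO) and 49.5 CPM (WT). The value of 1.62 thus does not show a reversed day 10 difference between Sam68 KO and WT. In that contrast the log2 fold changes of ENSMUSG00000020542.18 and ENSMUSG00000097160.2 were -2.08 and 0.64 (edgeR adjusted p = 0.535 and 0.699). ENSMUSG00000020542.18 had no count in any Quaking KO library of day 0, so its value depends on the prior count.

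**Figure D4:**
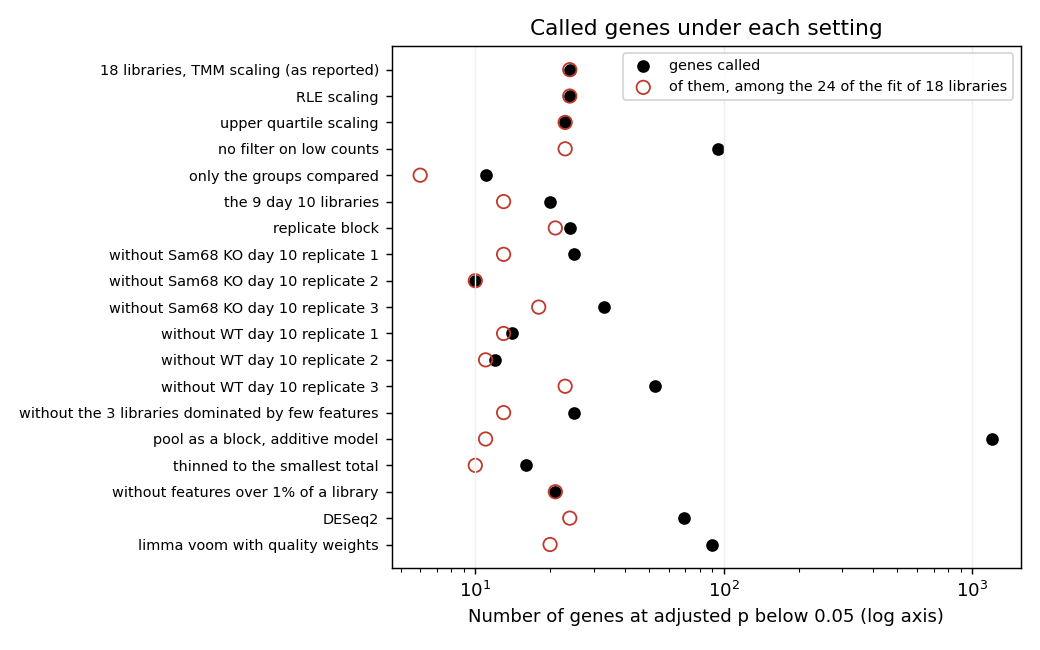
Number of genes called between Sam68 KO and WT at day 10 (horizontal log axis) under each setting (vertical axis), as filled circles, and how many of them are among the 24 reported, as open circles. Counts lie between 10 and 95 in all settings other than the additive model with pool as a block, which gives 1201. That model estimates another contrast, without the WT day 10 libraries.

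A few of the genes called at day 10 were also called, in the same direction, before differentiation. At day 0 Sam68 KO was in MIX_2 and WT in MIX_1, so pool and genotype cannot be told apart there either. Sam68 KO and WT cells at day 0, which share no library with the day 10 groups, differed in 173 genes (1.26% of those tested). Of these, 4 were also called at day 10, all 4 lower in Sam68 KO on both days, making up 16.7% of the day 10 calls and 2.31% of the day 0 calls. ENSMUSG00000097160.2 was one of them, at 0.866, 0.402 and 1.63 CPM in Sam68 KO and 30.8, 37.2 and 25.2 CPM in WT at day 0 (log2 fold change -5.05, SE 0.44, edgeR adjusted p = 5.66e-07). Its difference at day 10 was 1.43 log2 units smaller, with a 95% interval of -0.11 to 2.97. The second measured 125 ± 7.09 CPM in Sam68 KO and 257 ± 62.1 in WT at day 10 (SD, n = 3), and 132 and 301 CPM in the mean at day 0. Its log2 fold change was -1.02 at day 10 and -1.19 at day 0. The third was the most abundant called gene, which was at 4.32 and 9.45 CPM in the mean at day 0 with a log2 fold change of -0.89 at day 10 and -1.10 at day 0. The fourth measured 28.7 CPM in WT and 0.315 in Sam68 KO in the mean at day 0, and 7.71 and 0.528 CPM at day 10. Leaving out Sam68 KO replicate 1 or 2 or WT replicate 2 of day 10 left 2 of these 4 called on both days, and without the 3 dominated libraries 1 of the 4 was.

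Most genes called at day 0 were not called at day 10, where the libraries varied more (common biological coefficient of variation 0.301 against 0.157). The 88 genes lower in Sam68 KO at day 0 had a median log2 fold change of -2.27 then and of -0.28 at day 10, where 58 of them were below 0. The 85 higher genes had a median log2 fold change of -0.12 at day 10, where 33 were above 0. Over all tested genes, 50.7% were below 0 at day 10. In turn, 0 of the 10 genes higher at day 10 were called at day 0 by edgeR, DESeq2 or limma voom, with 3 at an unadjusted p below 0.05 by edgeR. Their median log2 fold change there was 0.37. Most of these 10 genes were at 2.62 CPM or less in the mean of both groups at day 0, where a call is hard to reach. The exceptions were at 10.5 and 74.7 CPM in Sam68 KO and at 6.84 and 73.9 CPM in WT. The lack of calls thus does not show that the genes were equal at day 0. The 14 lower genes had a median of -0.88 at day 0 and of -2.09 at day 10.

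The change in the Sam68 KO difference between the days was tested directly. It passed for 59 genes (0.431%; edgeR, adjusted p below 0.05), with 41 more negative and 18 more positive at day 10 than at day 0. The 41 had a median log2 fold change of 1.17 at day 0 and of -0.43 at day 10; 39 were above 0 on the earlier day and below 0 on the later one. Of the 41 genes, 34 were called at day 0 and 2 at day 10. The 18 had a median of -2.22 at day 0 and of 0.19 at day 10, with 16 called at day 0 by edgeR. At day 10 edgeR called 0 of the 18, with 6 at an unadjusted p below 0.05, while DESeq2 called 4 and limma voom 3. Most of these 59 were therefore genes called before differentiation, and 2 of the 24 day 10 genes were among them. At day 0 WT was in MIX_1 and Sam68 KO in MIX_2, the pool that holds WT at day 10, so pool and day cannot be told apart here. The number fell to 16 without Sam68 KO day 10 replicate 2, to 31 without replicate 3, to 21 without WT day 10 replicate 1 and to 39 without WT day 10 replicate 2. It was 96 without WT day 10 replicate 3. Each of Sam68 KO day 0 replicates 2 and 3 and WT day 0 replicates 2 and 3 left 25 to 28 when taken out. Taking out all 3 dominated libraries left 30.

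ENSMUSG00000047228.9 measured 0.519, 0.402 and 0.591 CPM in Sam68 KO and 493, 312 and 415 CPM in WT at day 0, when Quaking KO measured 171, 247 and 216 CPM. It was thus high before differentiation in both WT and Quaking KO. At day 10 WT measured 1.80, 2.44 and 7.05 CPM, the last from 3 counts, and Sam68 KO 1.01, 0.478 and 0.926 CPM. ENSMUSG00000056888.11 measured 8.31, 11.6 and 12.4 CPM in Sam68 KO and 2.03, 1.68 and 1.16 CPM in WT at day 0, without overlap. At day 10 it measured 15.7, 6.21 and 6.48 CPM in Sam68 KO and 18.3, 19.1 and 7.05 CPM in WT, the last from 3 counts. The groups overlapped there only through that WT library. The difference for this gene was 3.43 log2 units more negative at day 10 (value -3.43, SE 0.61, edgeR adjusted p = 0.00772).

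**Figure D5:**
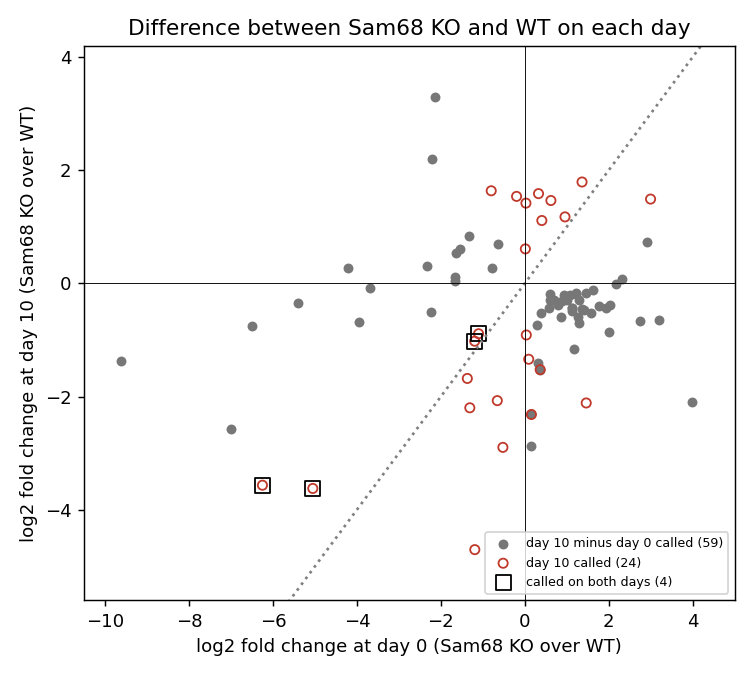
Log2 fold change of Sam68 KO over WT at day 10 (vertical axis) against day 0 (horizontal axis) for the 24 genes called at day 10 (open circles) and the 59 genes whose difference changed between the days (filled circles), with the dotted line at equal values. The 4 genes called on both days (squares) lie below 0 on both axes, and most filled circles lie near 0 on the vertical axis.

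All genes called higher in Sam68 KO embryoid bodies also rose over differentiation in the Quaking KO line and in WT. The time course of Quaking KO, whose libraries are not part of the Sam68 KO and WT groups, put 3805 genes (27.8%) at least 2-fold higher and 2713 (19.8%) at least 2-fold lower at day 10 than at day 0. Quaking KO was in MIX_1 at day 0 and in MIX_3, the pool of Sam68 KO, at day 10. Pool and day cannot be told apart in these lists, and they share a pool with the Sam68 KO side of the main comparison. All 10 higher genes were in the rising list. Of the 14 lower genes, 9 were in the rising list, 3 in the falling list and 2 in neither. In WT, whose day 10 libraries are part of the main comparison, all 10 higher genes and 9 of the 14 lower genes were called higher at day 10 than at day 0 (edgeR). The rising list as a whole had a median log2 fold change of 0.02 between Sam68 KO and WT and the falling list of -0.05, beside -0.0058 for all genes. Genes hardly counted at day 10 could not be called there, so these shares are not those of a random draw of genes.

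In Quaking KO embryoid bodies, sequenced in the same pool as Sam68 KO, several of the named genes stood at other levels. ENSMUSG00000020542.18 measured 10.2, 9.04 and 7.85 CPM there, below all Sam68 KO libraries, and ENSMUSG00000021798.13 measured 30.6, 19.9 and 15.7 CPM. The difference between the knockouts within that pool was 1.43 (SE 0.35, edgeR adjusted p = 0.00466) and 1.79 log2 units (SE 0.27, edgeR adjusted p = 1.62e-05). ENSMUSG00000036896.5 measured 140, 124 and 143 CPM in Quaking KO, above both WT and Sam68 KO, and the knockouts differed by -5.50 log2 units (SE 0.28, edgeR adjusted p = 1.66e-11). ENSMUSG00000097160.2 was low in both knockouts of that pool, with 0, 2 and 11 counts or 1.20 ± 1.65 CPM in Quaking KO (SD, n = 3), and the difference between them was 0.23 log2 units with a 95% interval of -1.27 to 1.72. At day 0 the same gene measured 40.9 ± 8.77 CPM in Quaking KO and 31.0 ± 6.01 CPM in WT (SD, n = 3). Of the 10 higher genes, 8 were called higher in Sam68 KO than in Quaking KO and 2 lower (edgeR, adjusted p below 0.05). Of the 14 lower genes, 9 were called lower and 1 higher. Against WT, the Quaking KO mean was below for 5 of the 10 and above for 9 of the 14. The most abundant called gene had a log2 fold change of -1.17 (SE 0.18) in Quaking KO against WT, and of 0.28 (SE 0.18) between the knockouts. The day 10 contrasts share Sam68 KO or WT libraries with the main comparison.

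Lists of cell-cycle genes gave no call, which in lists this short is not distinguishable from the 0.175% called among all genes. Of the marker genes assigned to a single phase in the mouse pairs distributed with scran, 11 for G1, 35 for S and 29 for G2/M were tested, and 0 were called by edgeR, with 3, 2 and 1 at an unadjusted p below 0.05, where 6.75% of all genes lay. DESeq2 and limma voom also called 0 of each list. Their median log2 fold changes were -0.0035, 0.02 and 0.0064, and the most extreme single gene was at -0.67.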

How the data were processed

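The deposited files, 1 per library for 18 libraries, hold raw counts for 51826 Ensembl IDs. The authors' tools included STAR 2.5.3a, Bowtie2 and bcl2fastq 2.17.1.14, with builds mm10 and GRCm38, per the submitters' processing notes. Which program counted, on which annotation and whether by strand is not given in the sources used here, so overlapping genes and near-identical copies are uncertain. Of the 51826 IDs, 0 matched a symbol in the reference table of 49997 genes, so lists by symbol, the check of the targeted gene and sequences were not used.

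All 18 libraries entered 1 fit in edgeR 4.0.16 (R 4.3.3): TMM scaling, the default filter on low counts (13701 of 33167 genes with any count kept), a mean per group, a robust quasi-likelihood test and Benjamini-Hochberg adjustment over all genes. The script was tested on simulated data. CPM are on TMM library sizes, and SE is the log2 fold change over the root of F. Floors of 3 counts cover counting error only. IDs are those called, at 10 CPM or more in the higher group and without overlap (not required between days), with the most extreme fold change. Alternatives used limma 3.58.1 and DESeq2 1.42.0, and cell-cycle lists came from scran 1.30.0. The comparison and lists were chosen with earlier results of these data known. Every pair of the 6 libraries differed by more than sampling noise (lowest chi-square over its degrees of freedom 9.83). Whether replicates were separate cultures is not stated beyond the series' wording, so p-values measure the spread between libraries. That spread was taken within groups over all 18 libraries (common biological coefficient of variation 0.229). It was smaller than in the 6 libraries compared (0.301).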

Additional observations from a re-analysis of the deposited data

Results flagged for a closer look

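The difference between Sam68 KO and WT changed between day 0 and day 10 for 59 genes by the direct test (edgeR, adjusted p below 0.05). The log2 difference of Sam68 KO over WT became more negative for 41 and more positive for 18, whichever of the 2 lines moved. The largest positive change was 8.25 log2 units, in ENSMUSG00000047228.9 (407 ± 90.7 CPM in WT at day 0 and 3.76 ± 2.86 at day 10, SD, n = 3). Sam68 KO was low on both days there, at 0.504 and 0.803 CPM in the mean. For ENSMUSG00000077704.1 the fitted change was 5.75 (edgeR adjusted p = 0.0484), and it depends on the prior count because that gene had no count in Sam68 KO at day 0 (a floor of 0.301 to 0.519 CPM), against 2.28 ± 0.702 CPM in WT (SD, n = 3). At day 10 it measured 7.13 ± 2.52 CPM in Sam68 KO and 11.2 ± 5.75 in WT. Its call was lost in 10 of 12 fits that left out 1 library (edgeR adjusted p 0.0402 to 0.186), with upper quartile scaling (0.0516), without features over 1% of a library (0.0509) and without the 3 dominated libraries (0.182). ENSMUSG00000021381.4 changed by -6.09 log2 units (edgeR adjusted p = 0.0374), with 14.2, 15.7 and 32.4 CPM in Sam68 KO and 1.02, 1.68 and 1.16 in WT at day 0. At day 10 it measured 1.38, 1.43 and 1.85 CPM in Sam68 KO and 4.05, 2.44 and 30.5 in WT, where replicate 3 stands apart. Its call was lost in 9 of the 12 fits without 1 library (edgeR adjusted p 0.00141 to 0.132) and in the fit of only the groups compared (0.0677). The difference for ENSMUSG00000056888.11 changed by -3.43 log2 units, with Sam68 KO at 10.8 CPM at day 0 and 9.47 at day 10 in the mean. It was called in all 12 such fits, as was ENSMUSG00000047228.9.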

How the results depend on the processing

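Between Sam68 KO and WT at day 10, 24 genes were called with RLE scaling, 23 with upper quartile scaling, 20 in the 9 day 10 libraries, 16 on thinning and 21 without features over 1% of a library (added after seeing the data). The count was 95 with no filter, 69 with DESeq2 and 90 with limma voom and quality weights, sharing 23, 24 and 20 of the 24, and 11 in the fit of only the groups compared. Leaving out single libraries gave 10 to 53. With an additive term for pool 1201 were called, in a contrast that is not the day 10 comparison. It sets Sam68 KO of day 10 against WT of day 0 through Quaking KO and takes the Quaking effect as equal on both days. There 17 of the 24 kept their sign and 7 reversed, among them ENSMUSG00000020542.18 (-2.08) and ENSMUSG00000097160.2 (0.64), neither past the threshold. Of the 7, 1 gene was past it (1.62, edgeR adjusted p = 0.000341), and its Quaking effect was not equal on both days. With the replicate block 24 genes were called, 21 of them the same; same-numbered libraries deviated together with r of 0.44, -0.09 and 0.27, so the numbers were not taken to pair them. The count of changes between the days was 129 with no filter, 36 with only the groups compared, 123 with DESeq2, 127 with limma voom, 30 without the dominated libraries and 16 to 96 without single libraries. The genes called on both days numbered 9 with no filter, 2 without the dominated libraries and 2 to 5 without single libraries. The cause of these changes was not tested. The fit of only protein-coding genes was not run, since no table pairs the IDs with a gene type. The small size of WT replicate 3 limits what can be read of genes under about 10 CPM.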
